A study of Mus musculus with 11 samples.

Results

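The 10 genes described here encode collagens and other proteins of connective tissue matrix: the fibrillar collagen chains Col1a1, Col1a2 and Col3a1, the basement membrane collagen chains Col4a1 and Col4a2, the collagen-binding glycoprotein Sparc, the small leucine-rich proteoglycans Dcn, Lum and Bgn, and fibronectin, Fn1. They were chosen by gene symbol. All 10 were found, each once, among 23282 entries, and all 10 were among the 6987 genes that passed the filter on low counts. RNA was sequenced from colonic cells of mice that the labels give as CD45+ CD11b+ Ly6G- Ly6C- MHCII+ CD64+, a surface pattern of intestinal macrophages. The mice drank 2.5% dextran sodium sulphate (DSS), which damages colonic epithelium and serves as a colitis model, for 5 days. The labels give that treatment for all groups and do not say whether animals of day 0 had begun it.

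The 11 libraries fell into 4 groups by strain and day of the DSS course. They were the Csf1r-EP4-/- strain at day 0 (KO day 0, 3 libraries), WT at day 0 (WT day 0, 2 libraries), the Csf1r-EP4-/- strain at day 39 (KO day 39, 3 libraries) and WT at day 39 (WT day 39, 3 libraries). The later day is 39 in the titles and 35 in the names of the deposited files, and the title is used here. WT day 0 replicate 2 is number 3 in its file's name. EP4 is a receptor for prostaglandin E2, encoded by Ptger4. The labels name the strain only, and do not say what drives the deletion, which exons are lost, how old the mice were or whether animals were pooled. Nothing in them says that libraries of a group came from separate animals, so p-values measure the spread between these libraries, which may be technical.

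Connective tissue matrix is made mainly by fibroblasts and related stromal cells. Type I collagen is a heterotrimer of Col1a1 and Col1a2 chains that forms fibres together with type III collagen, the product of Col3a1. Type IV collagen, built from Col4a1 and Col4a2 chains, forms the sheet under epithelium and around vessels and muscle fibres. Macrophages are known for taking up and degrading matrix rather than for making fibrillar collagen, and fibronectin is a member that they are also known to make. In DSS colitis, injury of the colon wall is followed by repair with matrix deposition.

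Library totals were 4003299 to 14207919 counts, the largest in KO day 0 replicate 3, and 1864 to 4170 genes had at least 100 counts. Counts of a gene differed widely between replicates, with a common biological coefficient of variation of 2.48 in edgeR. Ptger4 had 1350, 0 and 890 counts in KO at day 0, 0 and 0 in WT at day 0, 1, 8 and 4501 in KO at day 39 and 1481, 152 and 7286 in WT at day 39. It went against the label in KO day 0 replicates 1 and 3 and in KO day 39 replicate 3, and a read near the 3′ end may lie outside the deleted part. The 0 counts in both WT day 0 libraries give no sign of an intact gene either. Directions between genotypes therefore refer to labels alone. Fits without the libraries whose Ptger4 went against their label leave out those KO libraries only, so that KO day 0 is replicate 2 alone. Of the sort's defining genes, H2-Ab1 (MHC class II) never had fewer than 12803 counts, whereas Ptprc (CD45) and Itgam (CD11b) were at 3 or fewer counts in 3 libraries each and Fcgr1 (CD64) in 5. Such counts were common, since 74.0% of all tested genes were at 3 or fewer in at least 5 libraries.

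Col4a1 and Col4a2 lie head to head on opposite strands. In RefSeq (GRCm38.p6) the windows from 250 bases before to 50 bases after their starts lie at chr8:11312777-11313076 on the minus strand for Col4a1 and at chr8:11312555-11312854 on the plus strand for Col4a2. They share 78 bases, at chr8:11312777-11312854, which stand in capitals below, each window read 5′ to 3′ on its gene's own strand. The pair is shown because the 2 chains start within 1 stretch of DNA. Their levels below ranked alike over the 11 libraries, though the counts did not always go together.
Col4a1: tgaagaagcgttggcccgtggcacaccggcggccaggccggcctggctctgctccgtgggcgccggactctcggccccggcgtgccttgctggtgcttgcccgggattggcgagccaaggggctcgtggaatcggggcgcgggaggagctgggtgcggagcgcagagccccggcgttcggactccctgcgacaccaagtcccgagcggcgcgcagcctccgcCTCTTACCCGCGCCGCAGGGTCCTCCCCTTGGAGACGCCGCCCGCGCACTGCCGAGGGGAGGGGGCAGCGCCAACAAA
Col4a2: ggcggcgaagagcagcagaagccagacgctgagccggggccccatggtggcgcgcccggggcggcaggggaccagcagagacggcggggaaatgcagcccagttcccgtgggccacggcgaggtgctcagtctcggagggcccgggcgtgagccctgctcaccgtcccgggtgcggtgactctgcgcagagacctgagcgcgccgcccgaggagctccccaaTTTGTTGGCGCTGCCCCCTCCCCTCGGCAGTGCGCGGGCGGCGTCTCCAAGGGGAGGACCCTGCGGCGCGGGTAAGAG

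The windows of the fibrillar chains Col1a2 (chr6:4505368-4505667, plus strand) and Col3a1 (chr1:45311288-45311587, plus strand) are shown for contrast, since the 2 genes were counted in every library. Capitals mark CCAAT or its reverse complement ATTGG in Col1a2, and TATAAA in Col3a1.
Col1a2: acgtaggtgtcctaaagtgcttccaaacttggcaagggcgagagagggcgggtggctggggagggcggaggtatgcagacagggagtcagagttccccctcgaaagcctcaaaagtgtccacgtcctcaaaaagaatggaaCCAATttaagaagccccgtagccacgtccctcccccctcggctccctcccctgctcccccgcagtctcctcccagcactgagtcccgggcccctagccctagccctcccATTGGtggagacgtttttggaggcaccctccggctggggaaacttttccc
Col3a1: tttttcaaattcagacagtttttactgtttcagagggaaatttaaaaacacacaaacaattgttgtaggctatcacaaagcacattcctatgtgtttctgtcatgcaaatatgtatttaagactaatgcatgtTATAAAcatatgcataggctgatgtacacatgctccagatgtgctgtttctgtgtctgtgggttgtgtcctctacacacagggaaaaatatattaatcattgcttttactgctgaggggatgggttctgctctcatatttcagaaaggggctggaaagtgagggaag
Windows of 6 members were found in the RefSeq table. Searched on both strands, CCAAT was in 3 of them (Col1a2, Col4a1 and Col4a2) and in 37.4% of all 32851 windows of this length. TATAAA was in 1 (Col3a1) and in 13.6% of all windows. GGGCGG was in 4 (Col1a2, Col4a1, Col4a2 and Bgn) and in 35.7%. GC content was 74.0% for Col4a1, 73.7% for Col4a2, 61.0% for Col1a2 and 37.7% for Col3a1, beside a median of 52.7% over all windows. A match is a match of letters and was not tested as a binding site.

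The 3 fibrillar collagen chains were abundant in every library of these sorted macrophages, while Col4a2 and Lum had under 100 counts in most and Col4a1 in 6 of 11. Levels are given as CPM, the count relative to the scaled library size. The kit reads near the 3′ end of transcripts, so counts were not divided by transcript length. CPM or counts of different genes are not read as an order of expression, though genes of the lists were chosen for naming by mean CPM. Sums over genes weigh each gene by its counts. Col1a1, Col1a2 and Col3a1 each had at least 1000 counts in all 11 libraries, as did 100 of the 6987 tested genes (1.43%). Sparc had at least 100 in all 11, as did 252 tested genes (3.61%). The median tested gene reached 100 counts in 3 libraries.

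Col1a1 was at 2122, 9193 and 6083 CPM in KO at day 0, 860.0 and 5776 in WT at day 0, 4067, 1781 and 1422 in KO at day 39 and 2469, 3578 and 1910 in WT at day 39. The 3 highest libraries were all of day 0, KO replicates 2 and 3 and WT replicate 2, and the lowest was also of day 0, so every pair of groups overlapped. Group means were 5799 ± 3544 (SD, n = 3), 3318 ± 3476 (n = 2), 2423 ± 1434 (n = 3) and 2652 ± 849 (n = 3), in the same order.

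Col1a2, the partner chain, was at 1487, 5898 and 6611 CPM in KO at day 0, 519 and 5572 in WT at day 0, 2571, 2521 and 858 in KO at day 39 and 2982, 831 and 1180 in WT at day 39. The same 3 libraries of day 0 were highest and WT day 0 replicate 1 was again lowest. Col3a1 was at 664, 1943 and 4261 CPM in KO at day 0, 834 and 3424 in WT at day 0, 2309, 1507 and 2458 in KO at day 39 and 2403, 611 and 1305 in WT at day 39. Its 2 highest libraries were KO day 0 replicate 3 and WT day 0 replicate 2, and KO day 0 replicate 2 fell among the others. From lowest to highest library the CPM spanned 10.7-fold for Col1a1, 12.7-fold for Col1a2 and 6.98-fold for Col3a1. Group means of Col1a2 were 4665 ± 2775 (SD, n = 3) in KO at day 0, 3045 ± 3573 (n = 2) in WT at day 0, 1983 ± 975 (n = 3) in KO at day 39 and 1664 ± 1154 (n = 3) in WT at day 39.

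**Figure D1:**
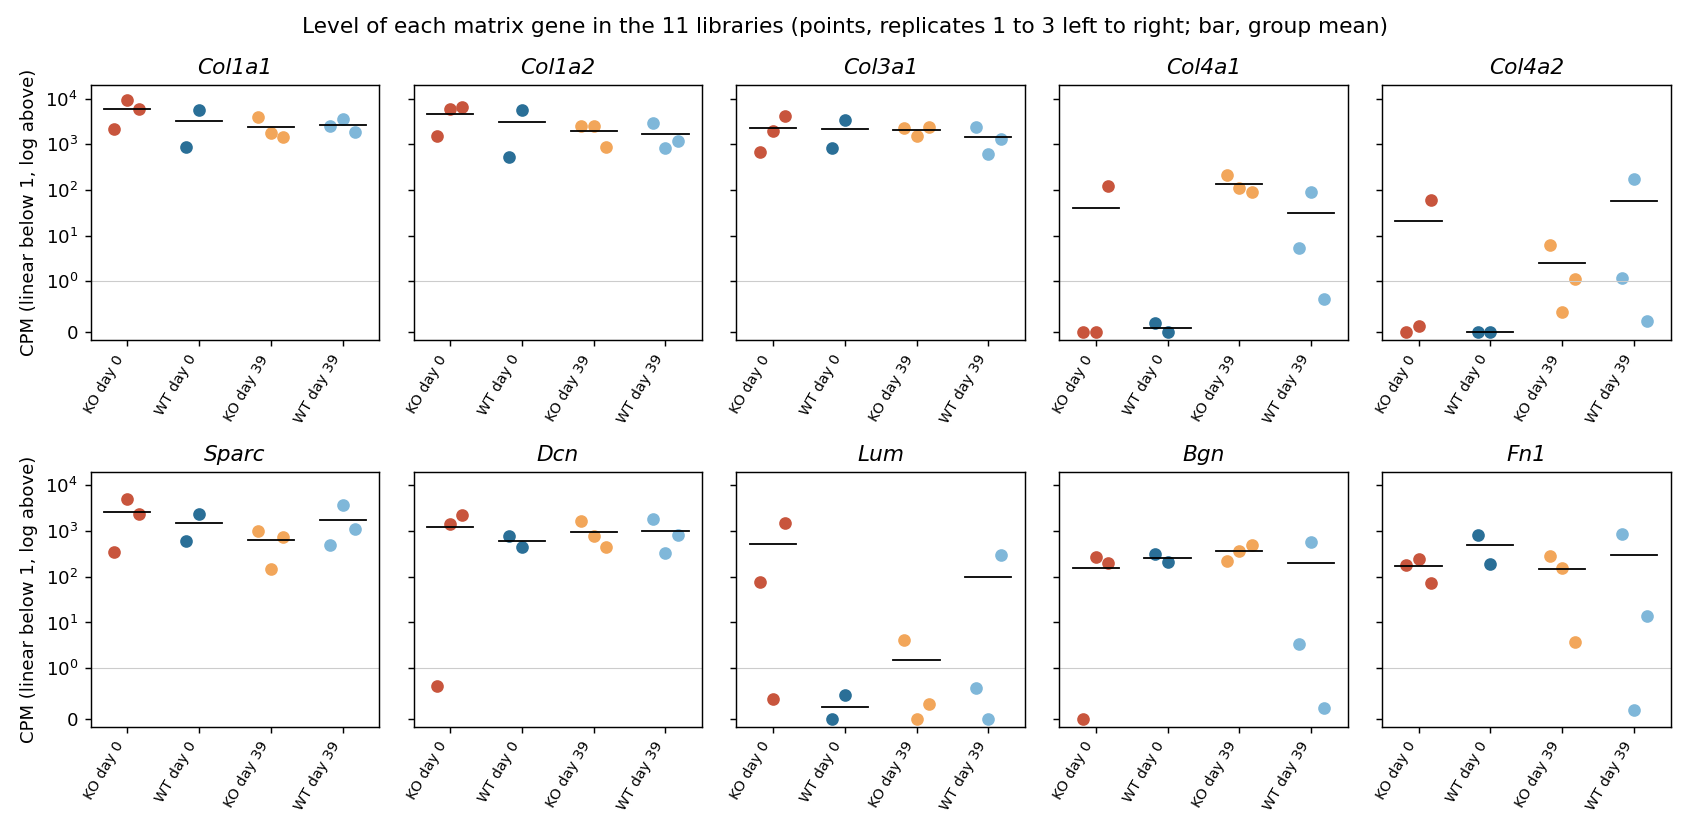
Level of each of the 10 genes (CPM, log scale above 1 and linear below) in the 4 groups; points are libraries, bars are group means. The lowest value of a fibrillar chain is 519 CPM (Col1a2), while Col4a1, Col4a2 and Lum range from 0 to 208, 171 and 1481 CPM.

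Sparc, which binds collagen and is secreted by fibroblasts and endothelium among others, was at 355, 5089 and 2342 CPM in KO at day 0, 605 and 2400 in WT at day 0, 991, 146 and 735 in KO at day 39 and 493, 3728 and 1087 in WT at day 39. It was high in the same 3 libraries of day 0 and also in WT day 39 replicate 2, where Col1a2 and Col3a1 were low. Its span was 34.9-fold.

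Ratios between members within a library do not depend on scaling. The count of Col1a2 was 0.701, 0.642 and 1.09 times that of Col1a1 in KO at day 0, 0.603 and 0.965 times in WT at day 0, 0.632, 1.42 and 0.603 times in KO at day 39 and 1.21, 0.232 and 0.618 times in WT at day 39. Thus 8 of 11 libraries had fewer Col1a2 than Col1a1 counts, and the ratio varied 6.09-fold. Col3a1 to Col1a1 ran from 0.171 to 1.73, a 10.1-fold span, with WT day 39 replicate 2 lowest and KO day 39 replicate 3 highest. Sparc to Col1a1 ran from 0.0819 in KO day 39 replicate 2 to 1.04 in WT day 39 replicate 2.

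**Figure D2:**
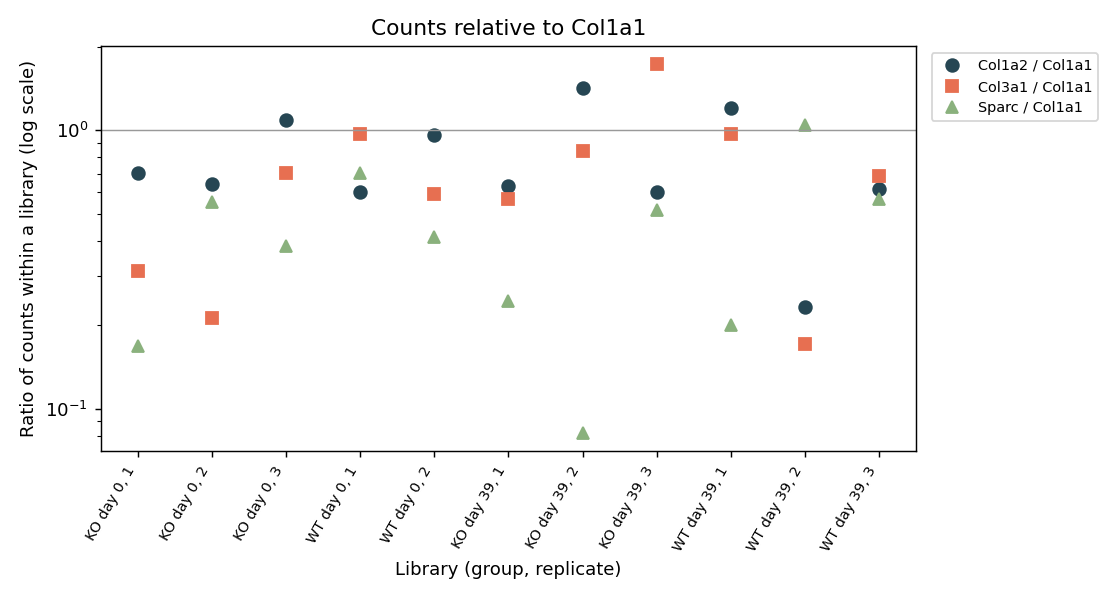
Counts of Col1a2, Col3a1 and Sparc relative to Col1a1 in each of the 11 libraries (log scale; the line marks equal counts). In WT day 39 replicate 2 Sparc stands at 1.04 while Col1a2 and Col3a1 are at 0.232 and 0.171.

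The proteoglycans were counted unevenly. Dcn encodes decorin, which binds collagen fibrils and limits their growth, and was at 0.64, 1446 and 2276 CPM in KO at day 0, 789 and 438 in WT at day 0, 1682, 785 and 452 in KO at day 39 and 1841, 332 and 803 in WT at day 39. It had 4 counts in KO day 0 replicate 1 and at least 1568 in each of the other 10 libraries. That library held 13203 Col1a1 counts.

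Lum encodes lumican, a fibril-binding proteoglycan related to decorin, and had 489, 3 and 22628 counts in KO at day 0, 0 and 2 in WT at day 0, 16, 0 and 1 in KO at day 39 and 2, 0 and 1353 in WT at day 39. Only 3 libraries reached 100 counts. Bgn encodes biglycan, a close relative of decorin, and had 0, 2148 and 3051 counts in KO at day 0, 1751 and 911 in WT at day 0, 856, 1885 and 1700 in KO at day 39 and 11, 3216 and 1 in WT at day 39. Of the 3 libraries with at least 100 Lum counts, 2 had 1 or 0 Bgn counts, and KO day 0 replicate 3 had many of both.

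Col4a1 had 0, 0 and 1878 counts in KO at day 0, 1 and 0 in WT at day 0, 805, 566 and 315 in KO at day 39 and 18, 487 and 3 in WT at day 39. Col4a2 had 0, 1 and 947 counts in KO at day 0, 0 and 0 in WT at day 0, 24, 2 and 4 in KO at day 39 and 4, 931 and 1 in WT at day 39. The 2 libraries with at least 100 Col4a2 counts, KO day 0 replicate 3 and WT day 39 replicate 2, also had many Col4a1 counts. The reverse did not hold, since KO day 39 had at least 315 Col4a1 and at most 24 Col4a2 counts in each library. Over all 11 libraries the 2 chains ranked alike (Spearman rho 0.806, beside a median of 0.182 over the 45 pairs of members). Within day 0 rho was 0.50 (n = 5) and within day 39 it was 0.314 (n = 6). Col4a1 was at 3 or fewer counts in 5 libraries and Col4a2 in 6. The strand setting of the counting is not given in the sources used here, so reads of overlapping or antisense genes cannot be told apart from those of either chain.

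Fn1 had 1151, 1917 and 1139 counts in KO at day 0, 4550 and 799 in WT at day 0, 1089, 795 and 13 in KO at day 39 and 2881, 1 and 64 in WT at day 39. The 5 libraries of day 0 all had at least 799 counts and 3 of the 6 of day 39 had 64 or fewer, while WT day 39 replicate 1 had the highest CPM of all (875) and the days overlapped. In Fn1 the 3 libraries with most Col1a2 did not stand apart: they were at 246, 74.5 and 188 CPM.

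The genotype contrast asks what differed between the strains at each day. At day 0 no member passed the edgeR quasi-likelihood test (0 of 10 at a Benjamini-Hochberg adjusted p under 0.05, 1 at an unadjusted p under 0.05), where 0.0143% of all tested genes passed and 7.99% had an unadjusted p under 0.05. Fitted log2 fold changes of KO against WT ran from -1.57 (Fn1) to 11.01 (Lum), with a median of 0.80 beside 1.08 over all tested genes, and 8 of 10 were above 0, as were 58.1% of all tested genes. In the same contrast 12 of 12 tested keratinocyte markers (median 1.16) and 10 of 10 skeletal muscle markers (median 1.81) were above 0, with 0 called in edgeR (2 and 1 at an unadjusted p under 0.05), and their part in the members' values was not tested. The count of members above 0 was 4 without WT day 0 replicate 1 and 5 without KO day 0 replicate 3. No member's groups stood apart without overlap, where in 6.73% of tested genes every KO library lay above every WT library and in 5.25% below. With genes whose group was at 3 or fewer counts in every library set to that bound, the medians were 0.80 and 1.43. The members' median was 0.08 without KO day 0 replicate 3 and -0.09 without WT day 0 replicate 1, and it was 2.55 without WT day 0 replicate 2. The member with the smallest p was Lum. Both WT libraries were at the floor of 3 counts, and the KO mean of 520.0 CPM was at least 837-fold higher than that floor, which rests on replicate 3 (1481 CPM). Its fitted difference was 11.01 ± 5.55 (log2, SE, adjusted p = 0.381 in edgeR), a value that depends on the prior count. The difference was 0.54 without the libraries whose Ptger4 went against their label, with KO day 0 replicate 2 (3 Lum counts) alone in its group. DESeq2 called 2 members, Lum (DESeq2 adjusted p = 0.00788) and Col4a1 (DESeq2 adjusted p = 0.0478), in a contrast in which it called 17.9% of all tested genes.

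At day 39 no member passed either (0 of 10, and 0 at an unadjusted p under 0.05), where 0.0286% of tested genes passed and 7.28% had such an unadjusted p, and DESeq2 called 0 members and 8.37% of all tested genes. Log2 fold changes ran from -6.05 (Lum) to 2.10 (Col4a1), with a median of -0.08 beside 0.00 over all tested genes. The members' median ran from -0.68 without KO day 39 replicate 1 to 0.42 without WT day 39 replicate 1, was 0.22 without KO day 39 replicate 3, and was also above 0 without KO day 39 replicate 2 (0.05) or WT day 39 replicate 2 (0.05). Lum again had the smallest p, at -6.05 ± 3.72 (SE, edgeR adjusted p = 0.491). This difference rests on WT replicate 3, without which it was 2.25. Col4a1 was the only member whose groups did not overlap, at 208, 112 and 90.8 CPM in KO and 5.46, 89.6 and 0.66 in WT. The lowest KO and the highest WT library differed by about 1 CPM, where 3.41% of tested genes were higher in KO without overlap and 3.99% lower.

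**Figure D3:**
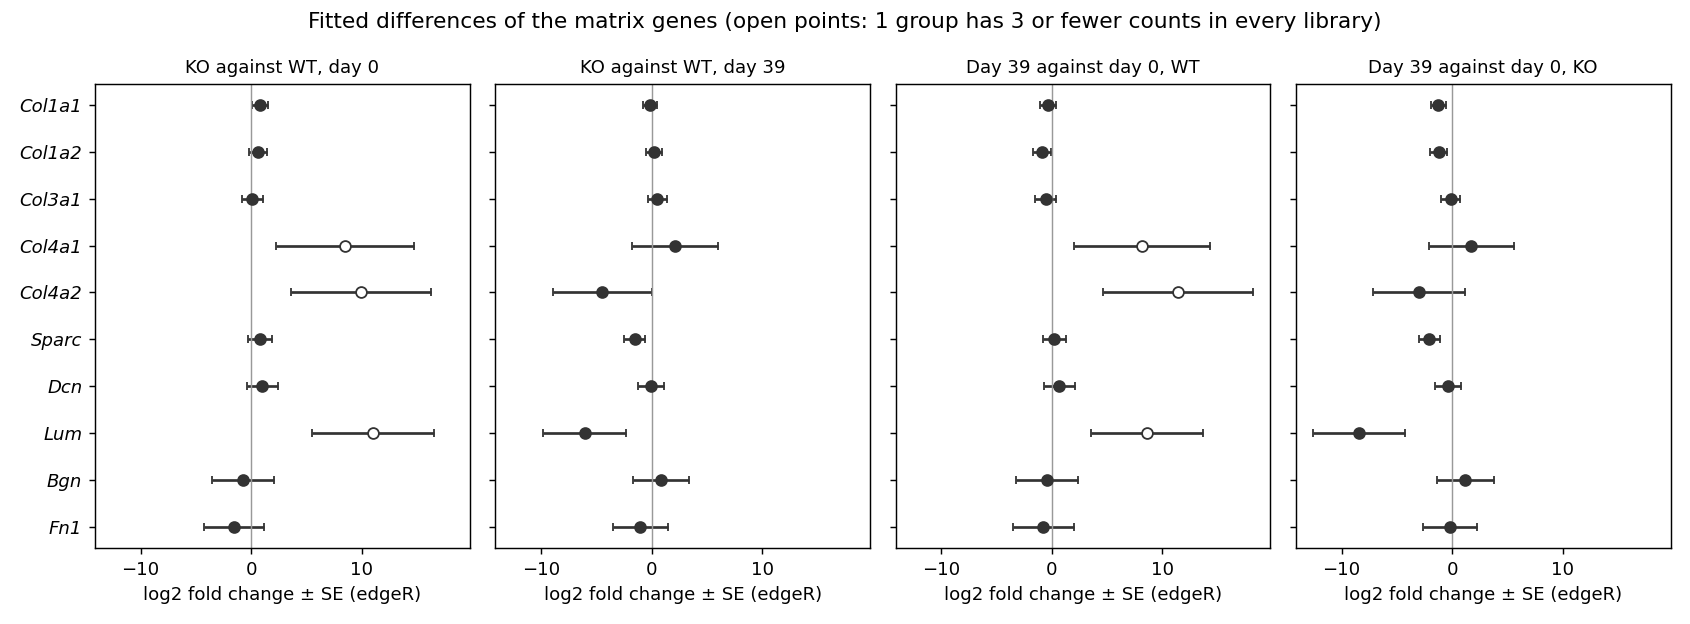
Fitted log2 fold changes ± SE (edgeR) of the 10 genes in 4 contrasts; open points have 1 group at 3 or fewer counts in every library. The lowest value of a fibrillar chain is -1.26 (Col1a1, KO over time), and the widest errors belong to Col4a1, Col4a2 and Lum.

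The time contrasts ask how day 39 of the DSS course differed from day 0. In WT no member passed (0 of 10, and 0 at an unadjusted p under 0.05), where 0.0143% of tested genes passed and 6.68% had such an unadjusted p, and DESeq2 called 0 members and 16.9% of all tested genes. Log2 fold changes ran from -0.87 (Col1a2) to 11.41 (Col4a2), with a median of -0.04 beside 1.64 over all tested genes, and with bounded genes the medians were -0.04 and 1.27. Without WT day 0 replicate 2 the members' median was 1.63, with 8 of 10 above 0, and without WT day 39 replicate 2 it was -0.40, with 4 of 10. Without WT day 39 replicate 3 it was 0.24, and without WT day 0 replicate 1 it was 0.04. Col4a1 and Col4a2 were higher at day 39 without overlap, as were 12.7% of tested genes (4.72% were lower), though in WT day 39 replicate 3 both were at the floor, with 3 and 1 counts against at most 1 and 0 at day 0. Lum had the smallest p. Its WT day 39 mean of 99.0 CPM was 159-fold or more above the floor of day 0, through replicate 3 alone, and its fitted difference was 8.62 ± 5.05 (log2, SE, adjusted p = 0.414 in edgeR). That difference was 0.31 without WT day 39 replicate 3 and 12.29 without WT day 0 replicate 2.

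In KO no member passed (0 of 10, with 2 at an unadjusted p under 0.05), where 0.157% of tested genes passed and 18.2% had such an unadjusted p. The sum of epithelial markers was higher in every KO library of day 39 than in any of day 0 (values stand with the marker lists). The keratinocyte markers had a median log2 fold change of -2.93 in this contrast, with 0 of 12 tested above 0 (5 at such an unadjusted p, 0 called in edgeR). The skeletal muscle markers had a median of -2.25, with 0 of 10 above 0 (5 at such a p, 2 called lower, and 0 called with no filter). The part of these cell types in the members' values was not tested. Here 8 of 10 members had a fitted value below 0, with a median log2 fold change of -0.79 beside 0.00 over all tested genes and a range from -8.44 (Lum) to 1.74 (Col4a1). Of all tested genes 49.2% were above 0. Without KO day 0 replicate 3, 5 of 10 members were above 0 and their median was 0.02. Their median was -0.12, with 4 of 10 above 0, without the libraries whose Ptger4 went against their label, where KO day 0 is replicate 2 alone. Sparc had the smallest p, with means of 624 ± 433 CPM (SD, n = 3) at day 39 and 2595 ± 2377 (n = 3) at day 0, giving -2.06 ± 0.97 (log2, SE, adjusted p = 0.273 in edgeR). Its value was -1.20 without KO day 0 replicate 2. Without the libraries whose Ptger4 went against their label it was -3.21, with KO day 0 replicate 2 (5089 CPM of Sparc) alone in its group. Sparc was higher in KO day 0 replicates 2 and 3 than in any KO day 39 library, and lower in replicate 1 than in 2 of the 3. In no member did the days stand apart, where 8.07% of tested genes were higher and 3.21% lower at day 39 without overlap. DESeq2 called 1 member, Lum (DESeq2 adjusted p = 0.0194), where it called 16.4% of all tested genes.

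Averaged over both genotypes, 0 of 10 members passed, and 0 had an unadjusted p under 0.05, where edgeR called 0.301% of tested genes and 19.2% had such an unadjusted p, and DESeq2 called 0 members and 17.4% of all tested genes. The smallest p was that of Col1a2, at -1.05 ± 0.55 (log2, SE, adjusted p = 0.265 in edgeR). It was 0.21 without WT day 0 replicate 2. Whether the change over time differed by genotype was tested as an interaction: 0 of 10 members passed, with 1 at an unadjusted p under 0.05, where edgeR called 0% of tested genes (14.4% at an unadjusted p under 0.05). The smallest p was that of Lum, with a log2 difference of -17.06 ± 6.91 (SE, edgeR adjusted p = 0.324), and it was -8.75 without WT day 39 replicate 3 and -6.22 without the libraries whose Ptger4 went against their label. DESeq2 called Lum (DESeq2 adjusted p = 0.00165) where it called 13.4% of tested genes. With this spread between replicates, a missing call says nothing about whether a level stayed the same.

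The libraries of day 0 with most fibrillar collagen also had the highest sums of keratinocyte and skeletal muscle markers at that day. The keratinocyte list was added after a likeness to the matrix sum had been seen. The 10 genes together took 4892, 24091 and 23512 CPM in KO at day 0, 4733 and 18012 in WT at day 0, 12341, 7381 and 6510 in KO at day 39 and 11074, 9932 and 6596 in WT at day 39. In scaled CPM, day 0 thus held both the 3 highest and the 2 lowest libraries, with 6 libraries of day 39 between them. The fibrillar chains made up 46.8% to 87.3% of these counts. As a share of the whole library the 10 genes ran from 0.481% in KO day 39 replicate 3 to 2.53% in KO day 0 replicate 3. By that share the lowest library was thus of day 39, and WT day 0 replicate 1 (0.612%) lay above WT day 39 replicate 3 (0.602%).

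By the rule for likeness, the genes outside the list whose CPM ranked most like this sum over the 11 libraries were Gp1bb and Sept5 (Spearman rho 0.943 each, with equal counts in every library), Lce1c (0.918), Acpp (0.907), and Gm2002, Il11ra2 and Cers4 (0.900 each). Lce1c encodes a protein of the cornified envelope of skin. These are the top of the coefficients of all tested genes outside the list over 11 libraries that share depth and scaling, and all of these genes were at the floor in some of them. Acpp was at 3 or fewer counts in 8 libraries, Lce1c and Cers4 in 6 each, Gm2002 in 3 and Gp1bb, Sept5 and Il11ra2 in 2 each.

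Markers of keratinocytes, a list of 14 genes added after Lce1c was seen, of which 13 were found in the files, summed to 2269, 26278 and 25289 CPM in KO at day 0, 2113 and 13692 in WT at day 0, 3311, 3238 and 1628 in KO at day 39 and 4310, 9963 and 5987 in WT at day 39. The 5 libraries of day 0 stood in the same order for these 13 genes as for the matrix genes, with KO replicate 2 highest and WT replicate 1 lowest. Of the defining markers, Krt1 had 595 to 40944 counts and Krt5 0 to 35505, and Lor had 40 to 42497. Over all 11 libraries the rank correlation was 0.864, and at day 39 alone 0.314 (n = 6). Lce1c was picked for its likeness to the matrix sum in these same libraries, so this order and correlation are not an independent result.

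Skeletal muscle markers summed to 2742, 24565 and 22270 CPM in KO at day 0, 2808 and 8813 in WT at day 0, 4427, 3176 and 3060 in KO at day 39 and 4508, 15221 and 6698 in WT at day 39. The same 3 libraries of day 0 were high, and in WT day 39 replicate 2, the library with most Sparc of day 39, the muscle sum was also high. Over all 11 libraries the matrix and muscle sums ranked alike (rho 0.855), which at day 39 alone was 0.314 (n = 6), and Pearson's r of the log2 sums went from 0.833 to 0.619 without KO day 0 replicates 2 and 3. Acta1, the actin of skeletal muscle, had at least 1915 counts in every library. Of the 10 muscle markers, Tnnc2 and Pvalb passed the edgeR test in 3 contrasts. Both were lower in KO at day 39 than at day 0 (edgeR adjusted p = 0.000305 and 0.000826, with 0.157% of tested genes called). Both calls were lost with no filter (edgeR adjusted p = 0.140 each), and that of Pvalb also without KO day 0 replicate 2 (edgeR adjusted p = 0.0559). Both were lower in KO than in WT at day 39 (edgeR adjusted p = 0.00953 and 0.0144), as the only genes called there (0.0286%). No gene was called in that contrast without KO day 39 replicate 1 or 2, WT day 39 replicate 2, or KO day 0 replicate 2 or 3, nor with no filter or without the libraries whose Ptger4 went against their label, so both calls were lost there. They were also lower at day 39 in the mean over genotypes (edgeR adjusted p = 0.0344 and 0.0310, with 0.301% called). Those calls were lost with no filter, without the libraries whose Ptger4 went against their label, and without any 1 of the 11 libraries other than KO day 0 replicate 1 and KO day 39 replicate 3.

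**Figure D4:**
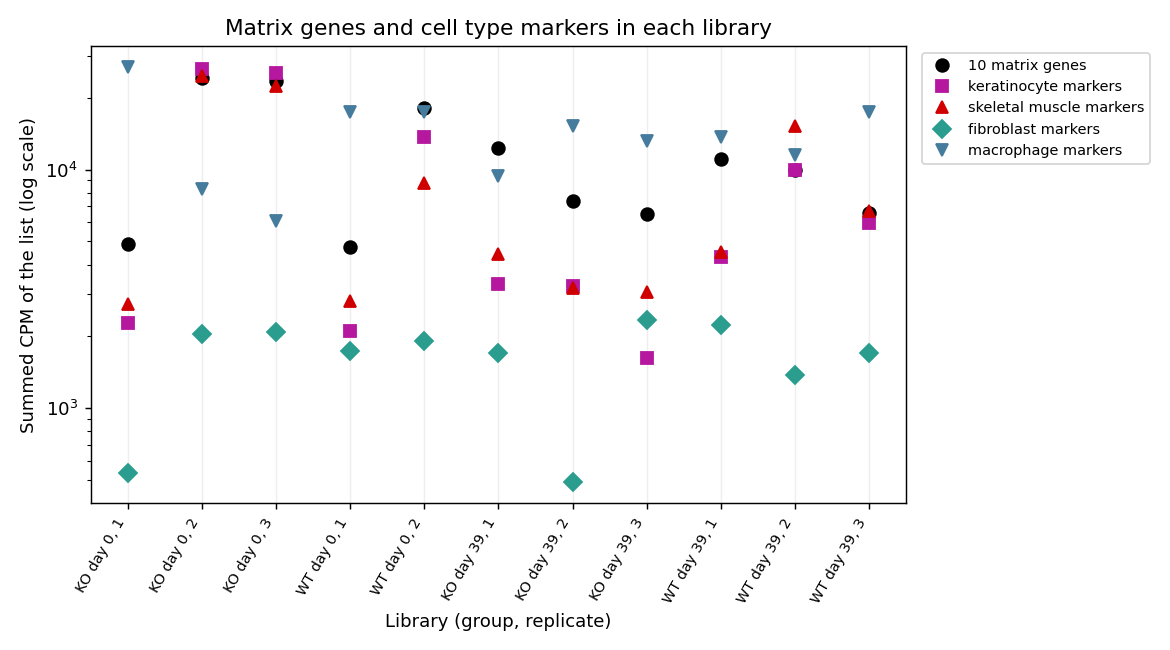
Summed CPM (log scale) of the 10 matrix genes and of 4 marker lists in each library. In KO day 0 replicates 2 and 3 and WT day 0 replicate 2 the matrix, keratinocyte and muscle sums are all high, and the macrophage sum is lowest in the 2 KO libraries.

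Fibroblast markers were counted unevenly. The 12 listed genes summed to 535, 2052 and 2095 CPM in KO at day 0, 1738 and 1910 in WT at day 0, 1706, 489 and 2342 in KO at day 39 and 2233, 1374 and 1708 in WT at day 39. At day 0 the same 3 libraries were highest, and over all 11 libraries the rank correlation with the matrix sum was 0.300 (-0.314 at day 39, n = 6). The difference from the correlations of the keratinocyte and muscle sums was not tested. Gsn had at least 100 counts in all 11 libraries, Cd34 and Clec3b in 9 each, Pdpn, Dpt and Fbln1 in 5 each (up to 3154, 4326 and 2970 counts) and Mfap5 in 3 (up to 4250). The defining fibroblast receptor Pdgfra had at most 322 counts and was at 3 or fewer in 7 of 11 libraries. Thy1 was at 3 or fewer in 9 and had at least 100 counts in 2 (up to 5208), and Twist2 and Tcf21 were at 0 in all. Of all tested genes 74.0% were at 3 or fewer counts in at least 5 libraries. The 10 endothelial genes summed to 0 to 566 CPM (rho 0.482 with the matrix sum, n = 11), and 8 of them reached 100 counts in 1 or 2 libraries. Flt1, Pecam1 and Plvap had up to 2185, 1995 and 1800 counts, and Cdh5 and Vwf up to 239 and 1.

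The sum of macrophage markers ranked opposite to the matrix sum (rho -0.764, n = 11, and -0.543 at day 39, n = 6). H2-Ab1, C1qa, C1qc and C1qb weighed most in it (mean CPM 6250, 2231, 1737 and 1279). Csf1r, the receptor that marks the lineage, did not follow that order. It was at 1506, 917 and 798 CPM in KO at day 0 and 1398 and 1150 in WT at day 0. At day 39 it was at 493, 783 and 383 CPM in KO and 813, 838 and 465 in WT. Of 14 listed genes 13 were found in the files, and they summed to 26944, 8247 and 6091 CPM in KO at day 0, 17479 and 17408 in WT at day 0, 9366, 15140 and 13159 in KO at day 39 and 13685, 11490 and 17417 in WT at day 39. The 2 lowest libraries, KO day 0 replicates 2 and 3, had the highest matrix sums, and the highest, KO day 0 replicate 1, had the second lowest. WT day 0 replicate 2 combined a high matrix sum with a high macrophage sum. Smooth muscle and pericyte markers summed to 135 to 2192 CPM and the 9 listed lymphocyte genes to 0 to 52.8 CPM. Epithelial markers had higher sums at day 39 in most libraries. The 12 listed genes summed to 1340, 74.7 and 1114 CPM in KO at day 0, 907 and 1776 in WT at day 0, 4013, 4038 and 8742 in KO at day 39 and 7072, 2678 and 1566 in WT at day 39. The days did not overlap in KO and overlapped in WT, and 0 of the 12 passed the edgeR test in any contrast (0 to 4 in DESeq2). In the mean over time 7 of 12 had an unadjusted p under 0.05 in edgeR, where 19.2% of all tested genes did, and in KO over time 5 of 12, where 18.2% did. The part of other cell types in the matrix counts was not tested, and in sorted bulk samples fewer cells of a type and less RNA per cell cannot be told apart.

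Of the other genes of matrix and its signals, some were at 0 in part of the libraries, while Sparcl1, Ctsb and Tgfbi had at least 100 counts in all 11 libraries. None of the genes of these lists passed the edgeR test in any of the 6 contrasts. In each list the counts at an unadjusted p under 0.05 and those called by DESeq2 are given as the lowest and highest of the 6. Over all tested genes these shares were 6.68% to 19.2% and 8.37% to 17.9%. Of 15 other collagen genes 10 were tested and 0 were called higher or lower (0 to 2 at an unadjusted p under 0.05 in edgeR, 0 to 3 in DESeq2). Of the 15, 12 were at 3 or fewer counts in at least 6 libraries, where 74.0% of all tested genes were so in at least 5. Col5a2, a chain of the type V collagen that co-assembles with type I, had up to 4316 counts and was at 3 or fewer in 5 libraries. Col6a1, Col6a2 and Col6a3, the chains of the microfibrillar type VI collagen, had at most 1760, 5409 and 4531 counts.

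Of 38 other matrix proteins 26 were tested and 0 called (2 to 5 at an unadjusted p under 0.05 in edgeR, 3 to 5 in DESeq2). Sparcl1, a relative of Sparc, was the one of them with at least 100 counts in all libraries (116 to 9083). Mgp, an inhibitor of calcification made by smooth muscle and stromal cells, had 1, 1 and 0 counts in KO at day 0, 0 and 0 in WT at day 0, 1399, 328 and 1992 in KO at day 39 and 3114, 93 and 4 in WT at day 39. It did not pass in the mean over genotypes (edgeR adjusted p = 0.121, the smallest of this list). Ecm1 and Thbs1 had at most 6713 and 4420 counts.

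Of 18 listed genes for collagen folding, cleavage and crosslinking 17 were found in the files, 13 were tested and 0 called (0 to 4 at an unadjusted p under 0.05 in edgeR, 0 to 3 in DESeq2). Serpinh1, the collagen chaperone, had 1 to 5773 counts, and Pcolce, which enhances the removal of the procollagen tail, 0 to 3318. P4hb and Loxl2 had at most 2820 and 1787. Of 21 matrix proteases and their inhibitors 12 were tested and 0 called (0 to 1 at an unadjusted p under 0.05 in edgeR, 0 to 1 in DESeq2). Ctsb, a lysosomal protease of macrophages, never had fewer than 2321 counts, and Mmp14, a membrane collagenase, had 3 to 8738. Timp2 and Mmp13 had at most 13620 and 4001 counts.

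Of 19 matrix receptors 15 were tested and 0 called (1 to 3 at an unadjusted p under 0.05 in edgeR, 0 to 5 in DESeq2). Cd44, a receptor for hyaluronan, and Itgb1, an integrin chain for collagen and fibronectin, each had at least 100 counts in 9 or more libraries, and Mrc1, an endocytic receptor that takes up collagen, had 7 to 4187. Itga6 had 1 to 3748. Of 15 genes of TGF-beta signalling, which drives matrix production in fibroblasts, 12 were tested and 0 called (0 to 3 at an unadjusted p under 0.05 in edgeR, 2 to 4 in DESeq2). Tgfbi, a secreted TGF-beta target, had 503 to 12808 counts, whereas the ligand gene Tgfb1 had at most 2 in any library, and Ctgf, Smad7 and Tgfbr1 had at most 2556, 2466 and 2599.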

How the data were processed

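Total RNA was made into libraries with a Lexogen QuantSeq kit, which primes at the poly(A) tail, per the labels' protocols. The authors deposited 1 table of whole-number counts per gene symbol for each library. The submitters' processing notes name Bowtie2, edgeR and the build hg19, without versions; hg19 is a human build and the symbols are of mouse, so which build gave the counts is unsettled and no gene coordinates are taken from the files. The counter, annotation, strand setting and use of molecular identifiers are not given in the sources used here. Promoter sequences and their coordinates are RefSeq's (GRCm38.p6). Groups and replicate numbers come from the titles. The deposited files of all 6 libraries titled day 39 are named day 35, and that of WT day 0 replicate 2 carries the number 3, so the later day is as titled and is not settled here.

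The test was the quasi-likelihood test of edgeR 4.0.16 (R 4.3.3): filterByExpr (6987 genes tested, 16295 not), TMM scaling, robust quasi-likelihood fit to all 11 libraries with 1 coefficient per group, 6 contrasts, Benjamini-Hochberg adjustment over all tested genes, threshold 0.05, two-sided. Each SE is taken from the fold change and the F statistic of its test. CPM divide counts by the TMM-scaled sum of tested genes. The floor is 3 counts per library (0.196 to 0.911 CPM) and covers counting error only. The procedure was also run on simulated counts. The outcome is not given here, so that run says nothing about the power of these tests. Named are all members, in each contrast the fold change of any member that passed or of the one with the smallest p, the 4 genes of highest mean CPM in each pathway list, and the 5 genes (with ties) most like the members' sum. Some other genes, such as Tgfb1, were named after their values were seen. Members, lists, tests and alternatives were chosen with earlier results of these data known. Alternatives were DESeq2 1.42.0, other scalings, no filter, a replicate block and left-out libraries.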

Additional observations from a re-analysis of the deposited data

How the results depend on the processing

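No member passed the edgeR test in any contrast under the other scalings, without the filter, with the replicate block, without any 1 library or without the 3 libraries whose Ptger4 went against their label. DESeq2 called 2 members between genotypes at day 0, 1 over time in KO and 1 in the interaction. DESeq2 called 1249 of all tested genes between genotypes at day 0, 585 at day 39, 1183 over time in WT, 1144 in KO, 1216 in their mean and 934 in the interaction. In edgeR the counts over all genes, in that order, were 1, 2, 1, 11, 21 and 0, and no filter gave 0, 0, 0, 0, 2 and 0. Library size only gave 0 at day 0, 0 in WT, 9 in the mean and 2 in the interaction, and DESeq2 size factors gave 0 in WT and 2 in the interaction. Without the 3 libraries that went against their label, 0 passed at day 0, 0 at day 39, 7 in KO and 4 in the mean. Leaving out 1 library gave 0 to 5, 0 to 2, 0 to 1, 5 to 15, 1 to 62 and 0 to 8 genes, in the same order. The highest of these in the mean (62) was without KO day 0 replicate 1. In some of these fits a single library of a group remained. That was so for WT day 0 without 1 of its libraries, and for KO day 0 without the 3 libraries that went against their label. The single library was assumed to vary like the other groups.

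The replicate number was fitted as a block. It gave 0 genes at day 0, 1 at day 39, 0 over time in WT and 7 in the mean, and turned Lum over time in WT to -1.88, with -2.75 in the interaction, 1.87 between genotypes at day 0 and -0.88 at day 39. Sparc over time in KO was -1.12 with the block. Under it Tnnc2 kept its call over time in KO (edgeR adjusted p = 0.00362), and the other calls of Tnnc2 and Pvalb were lost. Deviations of same-numbered libraries correlated at -0.0156 to 0.0685 over 15 pairs, and those of other pairs at -0.0685 to 0.0439 over 30. With values this small the numbers were not taken to pair the samples. Of 11 libraries 6 were closest to one of their own number, so pairing is not settled. Numbers are those of the titles. WT day 0 replicate 2, number 3 in its file's name, correlated at 0.0258 with KO day 0 replicate 2 and at 0.0439 with replicate 3. Without 1 library, Lum between genotypes at day 39 ran from -9.42 to 2.25 and Col1a2 in the mean over time from -1.64 to 0.21. The causes were not tested. Under DESeq2 size factors the median log2 fold change of all genes moved by up to -0.33 (WT over time), and the sign turned for Col3a1 at day 0, Dcn at day 39, and Dcn and Lum in the mean, the last 2 also under library size only. Group means of the members in CPM of the total count differed from the main ones by less than 1 SD for their sum in all 4 groups. At 3 counts the floor was at most 0.911 CPM.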

Other observations

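Several of the rarer collagen genes were counted in a single library. Col7a1 (738 counts), Col16a1 (1265) and Col27a1 (2084) reached 100 counts only in KO day 0 replicate 3, the deepest library, Col15a1 (1502) only in KO day 39 replicate 3, and Col5a3 (1362) only in WT day 39 replicate 2. Elsewhere each of these 5 stayed at 3 counts or below. Col17a1, a collagen of the junction between epidermis and dermis, had 3251 counts in KO day 0 replicate 3 (213 CPM) and 1894 in WT day 0 replicate 1 (338 CPM, its highest level), and was at 3 or fewer in 7 libraries. These genes were chosen after their values were seen.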
